A study of Sus scrofa with 10 samples.

Results

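The assembled transcriptome of the gilt ovary held 800 stranded loci that had no transcript type and lay in the gaps between the protein-coding loci. They were chosen from 43499 loci in the deposited table by their type, strand and position alone: the type field was empty, a strand was assigned, and the distance to every protein-coding locus on the same chromosome was more than 10 kb. The table held 20536 loci without a type in all, of which 8580 had no strand, and 19972 protein-coding loci. No expression value entered the choice. The locus just inside the limit was MSTRG.23049 on chromosome 4, which lay 10079 bases from the ZNF704 locus of the table and had 0 counts in every pig. In the RefSeq gene table it lay wholly inside ZNF704. Just outside lay MSTRG.4866 on chromosome 11, 9918 bases from HMGB1, with a mean count of 46.2 and a mean FPKM of 0.256.

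RNA was sequenced from the ovaries of 10 gilts, with 5 pigs in the control group (Control 1 to 5) and 5 pigs given recombinant pig follicle-stimulating hormone (rpFSH 1 to 5). The treated gilts received 1000 IU of rpFSH by injection, and the control gilts, labelled untreated, received saline. Every gilt was 234 days old at collection, and every gilt had been fed 20 mg of the progestin altrenogest per day for 18 days from day 210 of age, which ended 2 days before the injection. Surface follicles were removed before the ovary was frozen, so the libraries describe what was left of the organ. The labels name no breed, and the methods state a shared genetic background and birth date.

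Long non-coding RNAs are transcripts without an evident open reading frame that are usually less abundant and more tissue-restricted than messenger RNAs. Some carry a microRNA in their primary transcript, some act on the chromatin they are transcribed from, as in the X-inactivation centre, and many have no known role. Loci of this kind are also where an assembler places unannotated exons or the introns of genes that another annotation knows, so position against a second gene set is part of describing them.

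Of the 800 loci, 430 were on the plus strand and 370 on the minus strand. They spanned between 201 and 754170 bases, with a median of 9087 bases, and 694 of them (86.8%) had a single transcript. The median distance to the nearest protein-coding locus was 59924.5 bases, and 306 loci were more than 100 kb away. The nearest protein-coding locus was on the same strand for 405 and on the opposite strand for 395. Upstream of it lay 480, and downstream 320. Another locus of the table overlapped 154 of them on the same strand and 346 on the opposite strand, and reads of overlapping loci cannot be told apart where counting did not use strand or splicing. Most loci stood alone within their class: 467 had no other of the 800 within 10 kb on their strand, and the remaining 333 formed runs of up to 8 loci.

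Intergenic here means distant from the coding loci of the table's own annotation. When the same Sscrofa11.1 coordinates were set against the RefSeq gene table, 225 of the 800 (28.1%) overlapped a RefSeq protein-coding gene, 185 of them lying wholly inside it. A further 214 (26.8%) overlapped a RefSeq long non-coding RNA, 13 another RefSeq gene, and 348 (43.5%) no RefSeq gene. More than 10 kb from every RefSeq protein-coding gene were 549 loci. The table itself gave 93 of the 800 a gene name without a type, such as ssc-mir-202 for MSTRG.12665. The loci that met no RefSeq gene held 33.1% of the counts of the 800, and those in RefSeq protein-coding genes held 39.1%.

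The libraries held between 64873797 and 75114003 counts over all loci, and 3 counts, taken as the floor, corresponded to between 0.0399 and 0.0462 CPM, the count divided by the total of the pig and multiplied by 1000000. These floors cover counting error only. Marker genes of several cell types differed between ovaries within both groups. FPKM are counts per transcript length and library size. The summed FPKM of 8 luteal genes (STAR, CYP11A1 and others) was 2590 in Control 2, 1580 in rpFSH 1 and 364 in rpFSH 4, and between 23.1 and 66.7 in the other 7 pigs. The summed FPKM of 7 oocyte genes was between 4.26 and 22 in every pig. The summed FPKM of 8 multiciliated epithelial genes (FOXJ1, CCNO and others) was 23.6 in Control 2 and 49.3 in Control 5, and between 2.79 and 5.44 in the other 8. None of those 8 genes was below 3 counts in every pig, and DNAI1 and CFAP43 of the list were not found by name. The summed FPKM of 5 genes of oviduct secretory epithelium was 50.8 in Control 2 and 101 in Control 5, between 8.09 and 16.1 in the other control pigs and between 4.03 and 7.75 in rpFSH pigs. The mean log2(FPKM + 1) of the multiciliated list was different by -0.695 in the rpFSH group (exact permutation p = 0.0317) and that of the secretory list by -1.07 (exact permutation p = 0.0397). Over the 10 marker lists compared, both had an adjusted p of 0.199 by Benjamini-Hochberg (exact permutation tests). Control 5 also had a summed FPKM of 1790 for 5 smooth muscle genes, against 65.3 to 484 elsewhere. In whole-organ RNA, fewer cells of a type and less RNA per cell cannot be told apart.

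As a class the 800 loci were expressed at low level in every ovary and took shares of the counts that did not separate the groups. Their share of all counts was 1.49% ± 0.225 (SD) for the control pigs and 1.49% ± 0.136 for the rpFSH pigs (5 pigs each, exact permutation p = 1.0, two-sided). At least 3 counts were found for 91.5% ± 1.12 of them in a control pig and 92.1% ± 0.71 in an rpFSH pig (exact permutation p = 0.317). At least 3 counts in every pig were found for 644, and 6 had no count in any pig. The mean FPKM reached 1 at 500 loci, 5 at 15 and 10 at 7. The 10 most counted held 22.8% of the counts of the 800.

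The level was set against the loci most like them in each pig. The median log10 FPKM, over the loci above the lowest listed value, was 0.0619 ± 0.0455 (SD over 10 pigs) for the 800 loci, that of 766 stranded untyped loci within 10 kb of a protein-coding locus was 0.194 ± 0.0321, and that of 2821 distant untyped loci without a strand was -0.0848 ± 0.0401. The distant stranded loci differed from the near ones by -0.132 ± 0.0347, lower in 10 of 10 pigs, and were higher than the strandless ones by 0.147 ± 0.0319 in 10 of 10 pigs. Both differences had a p of 0.00195 by an exact sign-flip permutation test, the smallest it can give. Each class held the same loci in every pig, so this p describes consistency over pigs and not the spread between loci. The classes also differed in span, with medians of 9087, 4175 and 606 bases. With a span of at least 1000 bases the differences were -0.137 and 0.14. Between the groups the median did not separate, at 0.0603 ± 0.0595 in control and 0.0635 ± 0.0333 in rpFSH pigs (exact permutation p = 0.937). In all, 8 group means of this kind were compared, and each had an adjusted p of 1.0 over them by Benjamini-Hochberg (exact permutation test, whose smallest possible p is 0.00794). The lowest pig was Control 2, at -0.0358, which was also the pig with the highest luteal sum.

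**Figure D1:**
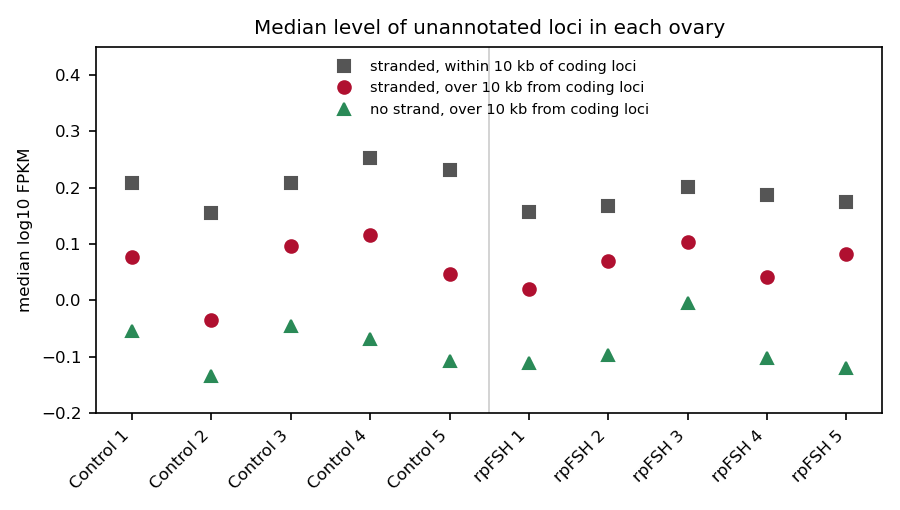
Median log10 FPKM (vertical axis) of 3 classes of untyped loci in each of 10 ovaries (horizontal axis), Control 1 to 5 left of the grey line and rpFSH 1 to 5 right of it. In every pig the distant stranded loci (circles) lie below the near stranded loci (squares) and above the distant loci without a strand (triangles).

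The 3 highest FPKM belonged to short loci. MSTRG.2239 (chr1:182978890-182979099, minus strand, 210 bases, no RefSeq gene) had a mean of 629 FPKM and measured 143, 82.2, 145, 164 and 112 CPM in Control 1 to 5 and 56.5, 200, 332, 172 and 146 CPM in rpFSH 1 to 5. It was present in every ovary, with rpFSH 3 highest and rpFSH 1 lowest, and the groups overlapped. MSTRG.29967 (chr7:10867700-10868341, plus strand, within the RefSeq long non-coding RNA LOC106504325) had a mean of 559 FPKM. It measured 2020, 678, 143, 98 and 148 CPM in Control 1 to 5 and 916, 46.5, 34.4, 31.3 and 58.9 CPM in rpFSH 1 to 5. Control 1, rpFSH 1 and Control 2 were the high pigs, and the log2 fold change of -1.46 ± 1.22 (SE) had a P of 0.258 (edgeR quasi-likelihood test). MSTRG.17211 on chromosome 2, with 19.8 FPKM, overlapped a miscellaneous RNA locus on the other strand and ranged between 16.6 and 67.3 CPM. MSTRG.15149 on chromosome 16 lay within RefSeq SEMA5A, which encodes a semaphorin, over 99.5% of its length and had 18.6 FPKM. All 4 overlapped a locus on the opposite strand.

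By counts, MSTRG.29967 ranked second, and the other 4 of the 5 most counted loci were long. MSTRG.1297 (chr1:110719116-110915401, minus strand) lay within RefSeq RORA, the gene of a nuclear receptor, and had a mean count of 60452. It measured 1370, 408, 1100, 1630 and 1170 CPM in Control 1 to 5 and 0, 987, 904, 448 and 568 CPM in rpFSH 1 to 5. No count was given to it in rpFSH 1, whereas the other 9 pigs had between 30395 and 120273. MSTRG.8212 on chromosome 13 lay within the RefSeq long non-coding RNA LOC106505633, 56886 bases from ADAMTS9, the gene of a secreted metalloproteinase, and was highest in rpFSH 3 at 989 CPM against 162 to 496 in the other 9 pigs. MSTRG.23537 on chromosome 4, with 20 transcripts, stayed between 212 and 423 CPM, and its groups overlapped.

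RefSeq microRNA genes lay in 5 of the loci. MSTRG.12665 (chr14:141206594-141207595, minus strand) contained MIR202, the gene of a microRNA known from gonads, and had a mean of 17.1 FPKM. It measured 8.56, 11.7, 8.13, 15.8 and 2.32 CPM in Control 1 to 5 and 38.2, 12.5, 4.12, 6.56 and 5.71 CPM in rpFSH 1 to 5, so that rpFSH 1 was above and Control 5 below all other pigs. It overlapped another locus on each strand. MSTRG.22535 on chromosome 4 contained MIR30D and stayed between 160 and 227 CPM, with a log2 fold change of -0.15 ± 0.11 and a P of 0.206 (edgeR quasi-likelihood test). MIR9800 and MIR9813 lay in MSTRG.14682 and MSTRG.25663, neither of which was called.

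MSTRG.36002 (chrX:40570242-40573028, minus strand) contained both MIR221 and MIR222, a pair of microRNAs known to act on cell cycle inhibitors. It measured 2.95, 4.47, 4.39, 2.75 and 3.34 CPM in Control 1 to 5 and 6.05, 8.85, 12.3, 5.52 and 4.69 CPM in rpFSH 1 to 5. Every rpFSH pig was above every control pig, and the log2 fold change was 1.07 ± 0.30 with a P of 0.00504 and an adjusted p of 0.843 (edgeR quasi-likelihood test, Benjamini-Hochberg). Next on the same strand lay MSTRG.36005 (chrX:40580383-40597620), which overlapped the RefSeq long non-coding RNA LOC102166369. It measured 27.8, 34.2, 31.2, 17 and 22.3 CPM in control pigs and 40.6, 56.7, 104, 51.7 and 37 CPM in rpFSH pigs, again without overlap, with a log2 fold change of 1.13 ± 0.31. Both loci were highest in rpFSH 3. When single pigs were left out, the fold limit was missed at both loci without Control 4 (0.97 and 0.99) and without rpFSH 3 (0.83 and 0.82), and at MSTRG.36002 also without rpFSH 2 (0.99). Mature microRNAs were not measured in these libraries.

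A block of the X chromosome between CHIC1 and ZCCHC13 carried 12 of the loci within 384 kb. This is the interval that holds the X-inactivation centre in mammals, whose non-coding RNAs silence 1 X chromosome in female cells. It was chosen for description after its values were seen. The 7 loci on the minus strand and 5 on the plus strand together took 3.88% of the counts of the 800. Their summed level was 589 ± 82.5 CPM (SD) in the control group and 566 ± 58.9 CPM in the rpFSH group, between 492 and 722 CPM over all pigs (exact permutation p = 0.635).

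Within this interval 5 minus-strand loci were present in every pig. MSTRG.36361 (chrX:59356255-59412033, RefSeq LOC110257855) had 4.13, 3.57, 3.04, 4.61 and 3.5 FPKM in Control 1 to 5 and 2.33, 3.91, 3.72, 3.39 and 3.44 FPKM in rpFSH 1 to 5. MSTRG.36365 and MSTRG.36366 overlapped the same RefSeq gene at 3.49 and 3.48 FPKM, followed by MSTRG.36367 at 2.67 FPKM and MSTRG.36368 at 2.46 FPKM. The groups overlapped at each of these 5, with log2 fold changes between -0.13 and 0.17. On the plus strand MSTRG.36370 had the highest level of the interval, 6.66 ± 1.37 FPKM (SD over 10 pigs). Its neighbour MSTRG.36371 behaved otherwise, with 6.07 FPKM in Control 2, 7.2 FPKM in rpFSH 5, at most 0.228 FPKM in another pig and 0 counts in 6 pigs.

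**Figure D2:**
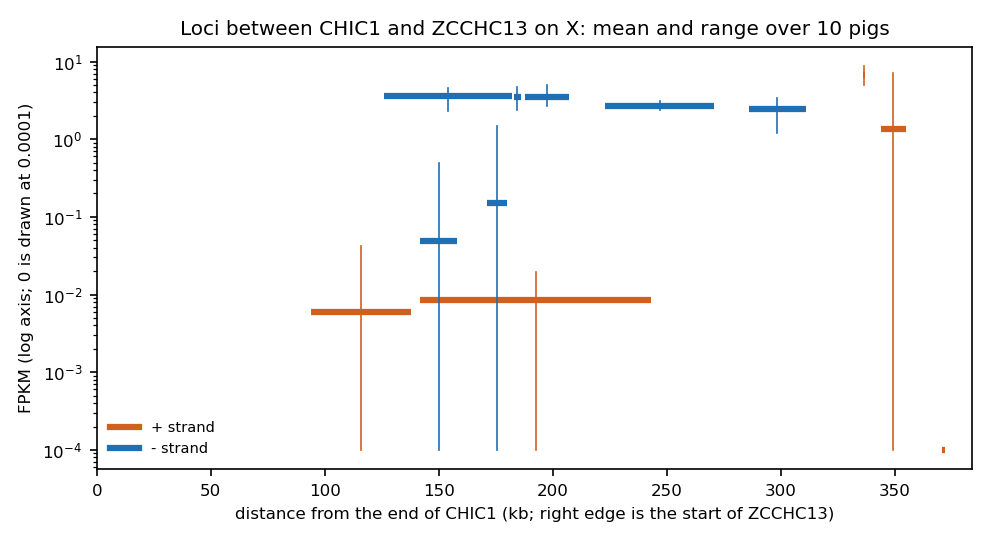
FPKM on a log axis against the distance from the end of CHIC1 in kb for the 12 loci between CHIC1 and ZCCHC13. Horizontal bars give the extent and the mean over 10 pigs, and vertical lines the range. The 5 minus-strand loci with means between 2.46 and 3.56 FPKM have short ranges, whereas MSTRG.36371 reaches from 0 to 7.2 FPKM.

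Chromosome Y held 36 of the loci, although the animals were female. The start of the pig Y chromosome is pseudoautosomal and shares its sequence with X, and how much of the reads came from X was not tested. Summed over the 36, Control 1 to 5 had 108, 295, 136, 184 and 104 CPM and rpFSH 1 to 5 had 956, 139, 125, 140 and 246 CPM. rpFSH 1 stood apart, and the groups overlapped (exact permutation p = 0.54). Control 2 and rpFSH 5 followed. The luteal sum was 1580 FPKM in rpFSH 1 and 2590 FPKM in Control 2, but 47.7 FPKM in rpFSH 5. In rpFSH 4, with a luteal sum of 364 FPKM, the Y loci had 140 CPM. The part of luteal tissue in this was not tested. Of the 36 loci, 18 were highest in rpFSH 1, 15 in rpFSH 5 and 0 in Control 2. The 73 protein-coding loci of the same chromosome summed to between 152 and 264 CPM and did not single out rpFSH 1, at 187 CPM. Over all 91 loci in the interval of the 36, rpFSH 1 had 1770 CPM and Control 2 had 750 CPM, against 355 to 533 CPM in the other 8 pigs.

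Against the control group, 62 of the 775 loci that were tested passed the study's limits for differential expression (unadjusted P below 0.05 and a log2 fold change above 1 or below -1), 32 of them higher and 30 lower in the rpFSH group. This was 8% of those tested, against 3.51% of all 35720 loci tested. Among all loci, 1.1% were called higher and 2.41% lower. The near stranded loci had 32 calls of 752 (4.26%), 5 higher and 27 lower, and the distant strandless loci 181 of 2633 (6.87%). An unadjusted P below 0.05 was reached by 75 of the 775 (9.68%, against 5.75% of all loci). None of the 775 passed after adjustment over all loci by Benjamini-Hochberg in the edgeR quasi-likelihood fit, where the smallest adjusted p was 0.843. With DESeq2, 58 of the 775 passed the study's limits (7.48%, where 3.9% of all loci did). Of these 33 were higher and 25 lower, where 1.14% and 2.76% of all loci were. At an unadjusted P below 0.05 DESeq2 had 79, where 7.16% of all loci passed, and after adjustment 12, where 0.627% of all loci passed. No adjusted p was given by DESeq2 for 83 loci of the class, a number that can include loci that were not tested. Some tested loci, such as MSTRG.2744, had no P in DESeq2, so fewer than 775 could be called by it. The number without an adjusted p is not given here for all loci. For limma on log2(FPKM + 1), only the P came from the fit, and the fold limit was applied to the mean FPKM of each group. With it, 26 of 772 were called (3.37%, where 1.92% of all loci were). Of these 12 were higher and 14 lower, where 0.721% and 1.19% of all loci were. At an unadjusted P below 0.05 limma had 37, where 4.13% of all loci passed, and after adjustment none of any loci. The median log2 fold change of the 775 was 0.10, and that of all loci 0.0.

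The calls were also counted by RefSeq class, without a test. Loci that met no RefSeq gene had 33 calls of 334, those in RefSeq long non-coding RNAs 18 of 209, those in RefSeq protein-coding genes 10 of 219, and those in other RefSeq genes 1 of 13. In 33 of the 62 more than 50% of the CPM came from 1 pig, and in 16 more than 90%. These shares are not given here for all called loci. The control and rpFSH pigs did not overlap at 13 of the 800 loci, of which 6 lay above and 7 below, where 0.283% and 0.448% of all loci did. Of these 13, 12 were called, and the other was MSTRG.698 on chromosome 1, near OGFRL1, with a log2 fold change of -0.63 ± 0.24. The call was kept by 24 of the 62 in all 10 leave-one-out fits, each without 1 pig, a share not given here for all loci.

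**Figure D3:**
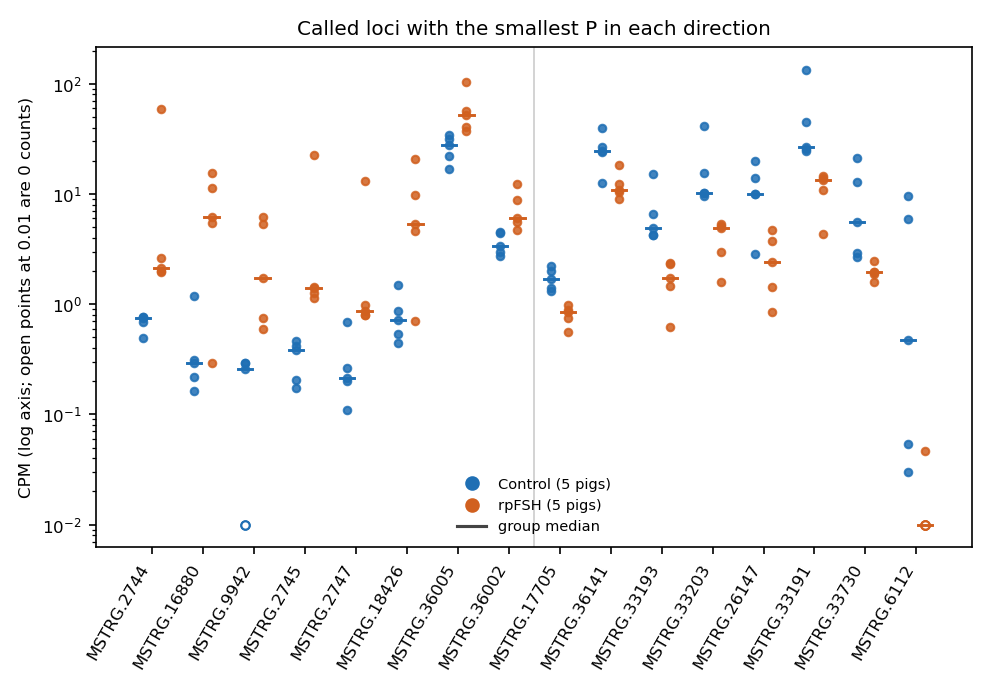
CPM on a log axis of the 8 called loci with the smallest P in each direction, higher in rpFSH left of the grey line and lower right of it, ordered by log2 fold change. Points are pigs, short bars group medians, and open points 0 counts. At MSTRG.2744, MSTRG.2745 and MSTRG.2747 a single rpFSH pig lies far above the other 4, whereas at MSTRG.36005, MSTRG.36002 and MSTRG.17705 no pig does.

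Among loci called higher, MSTRG.16880 (chr18:39319956-39360514, plus strand, RefSeq LOC110257625) had the smallest P. Its nearest protein-coding locus carried BMPER, an extracellular BMP modulator, and BBS9. It measured 0.164, 0.309, 0.292, 0.217 and 1.18 CPM in Control 1 to 5 and 11.4, 5.4, 0.293, 6.13 and 15.6 CPM in rpFSH 1 to 5. Every rpFSH pig but rpFSH 3 was above every control pig, for a log2 fold change of 4.17 ± 0.94 with an edgeR P of 0.00113. Without Control 5 it was 4.97. MSTRG.18426 (chr2:66543567-66548588, minus strand, no RefSeq gene) measured 1.49, 0.873, 0.721, 0.448 and 0.533 CPM in Control 1 to 5 and 0.71, 9.75, 20.7, 4.58 and 5.39 CPM in rpFSH 1 to 5. Here rpFSH 1 was within the control range, and the log2 fold change was 3.33 ± 0.75 with an edgeR P of 0.00117. Without rpFSH 3 it was 2.66. MSTRG.9942 on chromosome 13 had at most 0.295 CPM in a control pig and between 0.601 and 6.2 CPM in rpFSH pigs, without overlap.

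Lower in the rpFSH group with the smallest P was MSTRG.17705 (chr2:18638980-18639899, minus strand, RefSeq LOC100521654), 27214 bases from HSD17B12, the gene of a hydroxysteroid dehydrogenase. It measured 1.31, 1.4, 2.01, 2.2 and 1.68 CPM in Control 1 to 5 and 0.847, 0.991, 0.755, 0.564 and 0.877 CPM in rpFSH 1 to 5. The groups did not overlap, for a log2 fold change of -1.06 ± 0.25 with an edgeR P of 0.00141. It fell short of the fold limit without Control 4 (-0.98) and without rpFSH 4 (-0.96). MSTRG.36141 (chrX:45754265-45762523, minus strand, RefSeq LOC102166571), 121565 bases from the receptor gene GPR173, was of the same size. It measured 24.3, 39.3, 26.9, 23.8 and 12.6 CPM in control pigs and 8.93, 12.2, 10.9, 10.5 and 18.3 CPM in rpFSH pigs, with overlap through Control 5 and rpFSH 5 and a log2 fold change of -1.07 ± 0.31. Without Control 2 it was -0.80 and without rpFSH 1 -0.99, under the fold limit.

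On chromosome 8 lay 3 called loci together, the nearest 21627 bases from SLC7A11, which encodes a cystine-glutamate exchanger. MSTRG.33191 (chr8:88191731-88338519, plus strand, RefSeq LOC110262153) measured 25.8, 44.7, 24.5, 26.7 and 134 CPM in Control 1 to 5 and 13.4, 14.7, 4.29, 10.8 and 14.1 CPM in rpFSH 1 to 5. MSTRG.33203 (chr8:88390213-88426509, plus strand) followed it, with 9.66, 15.6, 10.1, 10.2 and 41.5 CPM against 4.94, 5.12, 1.6, 2.96 and 5.38 CPM. MSTRG.33193, on the minus strand inside MSTRG.33191, had 4.23, 6.59, 4.25, 4.92 and 15.3 CPM against 2.36, 2.3, 0.617, 1.47 and 1.74 CPM. Control 5 was the highest and rpFSH 3 the lowest pig at all 3, the groups did not overlap, and the log2 fold changes were -2.14 ± 0.56, -2.10 ± 0.51 and -2.03 ± 0.48. Without Control 5 they were -1.41, -1.50 and -1.55, and without Control 2 and Control 5 -1.10, -1.25 and -1.33. Each kept its call in these and in all 10 leave-one-out fits. The 3 are neighbours and do not count as 3 separate observations, and reads of the overlapping pair cannot be told apart if strand was not used in counting.

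Several loci called lower were high in the pair of control pigs that carried multiciliated markers. MSTRG.6112 (chr12:21828328-21846278, plus strand, RefSeq LOC110256013), 11007 bases from the chemokine receptor gene CCR7, measured 0.0298, 5.97, 0.476, 0.0543 and 9.55 CPM in Control 1 to 5. The rpFSH group held 3 counts in all, in rpFSH 3, so no fold change is given. The edgeR P was 0.00162, and limma did not call it, with a P of 0.0713. MSTRG.8684 (chr13:81950177-81954624, overlapping RefSeq PXYLP1) is a locus that the study names and pairs with PXYLP1. It measured 0, 5.85, 0.0921, 0.149 and 16.3 CPM in Control 1 to 5 and 0, 0.107, 0.293, 0 and 0 CPM in rpFSH 1 to 5. Without Control 5 it was no longer called, at a log2 fold change of -4.35, and without rpFSH 3 it was -7.25. MSTRG.33730, within RefSeq C8H4orf22 near FGF5, a fibroblast growth factor gene, had 12.9 CPM in Control 2 and 21.4 CPM in Control 5, 2.69 to 5.52 CPM in the other controls and 1.6 to 2.46 CPM in rpFSH pigs. Without these pigs its log2 fold change was -0.85 and it was not called. Of the 30 loci called lower, 12 had Control 2 and Control 5 as their highest pigs. No such share is given for all loci, so this count is not shown to be particular to these loci. Over all loci, 2.41% were called lower in the fit with every pig. MSTRG.26147, within RefSeq MGAT4C, was not of this kind, with 14.1, 9.91, 10, 2.88 and 19.7 CPM against 3.76, 1.43, 2.4, 0.853 and 4.66 CPM. Without Control 2 and Control 5, 44 of 755 loci were called (5.83%, where 3.05% of all loci were), 25 higher and 19 lower, where 1.8% and 1.25% of all loci were. Of the 62 first called 25 were among them, 15 higher and 10 lower. In this edgeR quasi-likelihood fit 57 had an unadjusted P below 0.05, where 6.44% of all loci did, and 0 passed after adjustment by Benjamini-Hochberg, where 0.0085% of all loci did. The part of epithelial content in these calls was not tested.

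Many called loci lay close to another called locus. When called loci at most 200 kb apart were joined, 14 regions held 40 of the 62, and the 62 calls came down to 36 separate places. This grouping was made after the calls were seen. In several regions neighbouring loci were high together in 1 pig. On chromosome 2 (chr2:123651949-124072699, with no protein-coding locus inside), 8 of 9 loci were called lower, and the summed level of the 9 was 152 CPM in Control 2 and between 0.0533 and 1.45 CPM in the other 9 pigs, so that Control 2 gave 96.7% of it. Control 2 had the highest luteal sum, at 2590 FPKM. The pigs next in luteal sum, rpFSH 1 (1580 FPKM) and rpFSH 4 (364 FPKM), had 0.191 and 0.795 CPM here. The part of luteal tissue in this was not tested.

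On chromosome 4 (chr4:100086025-100239899), 5 of 5 loci were called higher, among them MSTRG.23824 (chr4:100091286-100100649, minus strand), which the study names and which lay 33020 bases from BCL9, a cofactor gene of WNT signalling. The study pairs MSTRG.23824 with another gene, ENSSSCG00000033862, which belongs to the 1 protein-coding locus inside the region. MSTRG.23824 measured 1.67, 1.64, 1.12, 1.94 and 0.533 CPM in Control 1 to 5 and 219, 5.37, 0.601, 14.5 and 2.23 CPM in rpFSH 1 to 5. rpFSH 1 was far above all others, rpFSH 3 was within the control range, and the log2 fold change was 5.19 ± 1.52 with an edgeR P of 0.00639. Without rpFSH 1 the log2 fold change was 2.04, still called. DESeq2 gave a log2 fold change of 5.2 but no P. The limma P on log2(FPKM + 1) was 0.127. In FPKM, the rpFSH mean over the control mean came to 5.12 on the log2 scale, a value that limma did not estimate. Summed over the 5 loci, rpFSH 1 had 708 CPM and rpFSH 4 had 50.4 CPM, against 1.65 to 16.8 CPM in the other 8 pigs. These were the rpFSH pigs with the highest luteal sums, 1580 and 364 FPKM, while Control 2, with 2590 FPKM, had 3.71 CPM.

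On chromosome 1 (chr1:228340722-228461864), 4 of 4 loci, none in a RefSeq gene, were called higher. MSTRG.2744 (plus strand) measured between 0.488 and 0.767 CPM in control pigs and 2.14, 1.96, 1.99, 2.6 and 59.1 CPM in rpFSH 1 to 5. MSTRG.2745, next to it on the same strand, had at most 0.46 CPM in a control pig and 1.27, 1.41, 1.43, 1.14 and 22.5 CPM in rpFSH pigs. MSTRG.2747 on the minus strand had 0.86, 0.991, 0.802, 0.795 and 13 CPM in rpFSH pigs and at most 0.685 CPM in a control pig. All 5 rpFSH pigs lay above all 5 controls at these 3 loci, and the log2 fold changes were 4.27 ± 1.12, 4.07 ± 1.00 and 3.47 ± 0.99. Without rpFSH 5 they were 1.68, 2.03 and 1.58, and the call of each was kept in all 10 leave-one-out fits. DESeq2 gave log2 fold changes of 4.27, 4.07 and 3.48 but no P, and limma did not call them, with P between 0.126 and 0.183.

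**Figure D4:**
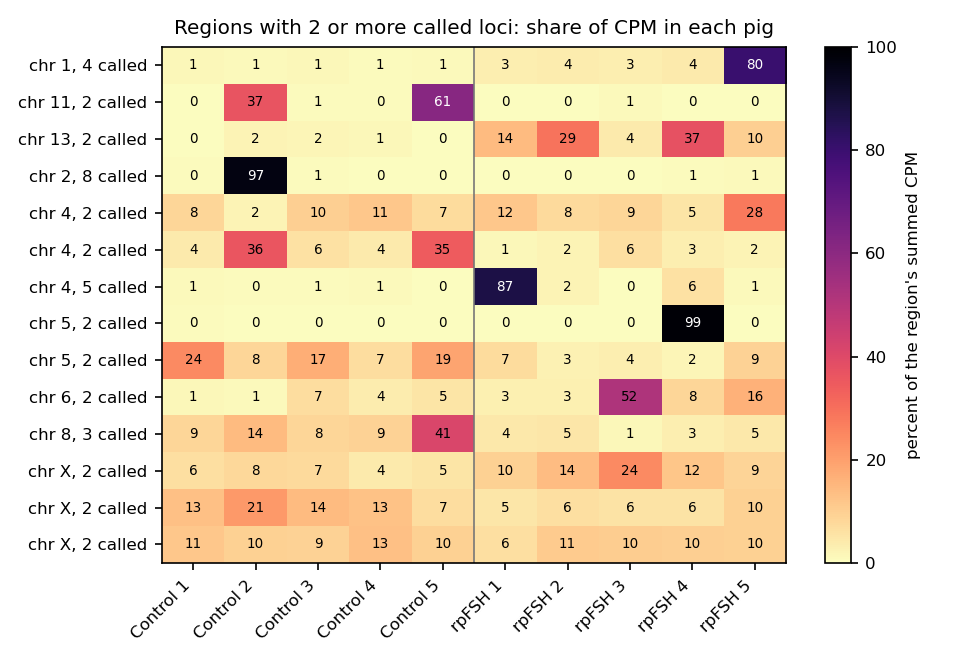
Share of a region's summed CPM (percent, colour and number) found in each pig, for the 14 regions that held called loci at most 200 kb apart; rows give the chromosome and the number of called loci. A single pig holds between 80.3% and 98.9% in 4 regions (chr 1, chr 2, chr 4 with 5 called, and the first on chr 5), whereas the first of the 3 regions on X, the microRNA host, is spread over the rpFSH pigs.

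Loci with most of their CPM in 1 pig made up a larger share here than among the other classes. With a mean count of at least 100, 59 of 630 loci (9.37%) had more than 50% of their CPM in 1 pig, and the median share of the highest pig was 21.2%. Among near stranded loci 3.39% had such a majority in 1 pig, among distant strandless loci 5.61% and among protein-coding loci 1.97%. These shares are given without a test. Of the 59, 28 were led by rpFSH 1, 12 of them on Y and 5 on chromosome 4, and 13 by Control 2, 8 of them on chromosome 2. These pigs had the highest luteal sums. A locus with more than 50% of its CPM in 1 pig cannot be led by both of them, and the part of luteal tissue was not tested. The most extreme were MSTRG.25302 on chromosome 5, with 14.5 CPM in rpFSH 4 (98.9% of its total) and at most 0.0614 CPM elsewhere, and MSTRG.32961 on chromosome 8, with 15.9 CPM in Control 4 (98.1%) and at most 0.173 CPM elsewhere.

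Part of the unevenness lay between strands at the same position. A locus on the opposite strand covered at least 50% of 278 of the 800 loci. MSTRG.22511 (chr4:3715312-3725873, minus strand), in a run near the potassium channel gene KCNK9, had 0 counts in all 5 control pigs and in rpFSH 1 and 2, and 3559, 2045 and 10796 counts in rpFSH 3 to 5. In mean CPM it was at least 1130-fold higher in the rpFSH group than in the control group, taken at the floor of 3 counts per library, and the DESeq2 adjusted p was 8.49e-16 (edgeR adjusted p = 0.843). On the plus strand, over nearly the whole of it, lay MSTRG.22510, with 4264, 978, 5012, 5432 and 4081 counts in Control 1 to 5 and 5492, 3456, 131, 125 and 434 counts in rpFSH 1 to 5. The 3 pigs with counts on the minus strand were the 3 with few on the plus strand.

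Summed over both strands the level was 56.3 ± 25.7 CPM (SD) in control and 74.2 ± 51.3 CPM in rpFSH pigs, for a log2 fold change of 0.44 ± 0.50 with an edgeR P of 0.403. The other called locus of the run, MSTRG.22509 on the minus strand, measured 20.6, 6.75, 22.6, 40.3 and 19.3 CPM in control pigs and 41.5, 31.0, 29.3, 21.8 and 118 CPM in rpFSH pigs, for a log2 fold change of 1.18 ± 0.52, and its call was kept in 4 of the 10 leave-one-out fits. It was lost without Control 1, 2, 3 or 5 and without rpFSH 1 or 5, and without rpFSH 5 the log2 fold change was 0.56. Partner counts were then added in this way to all 278 loci, and the fit was repeated. It called 60 of the 792 loci tested (7.58%, where 3.49% of all loci were called). Of 18 called loci with a partner, 10 kept the call and 8 lost it, while 5 others gained it.

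MSTRG.35838 on X, within RefSeq NHS, was another such pair among the most counted loci. It had 26353, 0, 24367, 29203 and 35442 counts in Control 1 to 5 and 0, 30380, 30037, 25841 and 36114 counts in rpFSH 1 to 5. Its plus-strand partner MSTRG.35837 had 17839 counts in rpFSH 1 and 30639 in rpFSH 2, but 0 in Control 2, so the partner held counts in only 1 of the 2 pigs that lacked them. Such gaps were found at 24 of 550 loci with a median count of at least 100 (4.36%), where at least 1 pig had 0 counts, against 3.66% of near stranded loci and 0.162% of protein-coding loci. A partner was present at 19 of the 24. MSTRG.36363 and MSTRG.36364 inside the X interval each had all of their counts in 1 pig, 501 in rpFSH 4 and 878 in Control 3, and were called in 4 of 10 leave-one-out fits each. The call of MSTRG.36363 was lost without any one control pig and that of MSTRG.36364 without any one rpFSH pig. Both lay within MSTRG.36361 on the same strand. Whether the 0 counts stand for absent RNA was not tested.

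**Figure D5:**
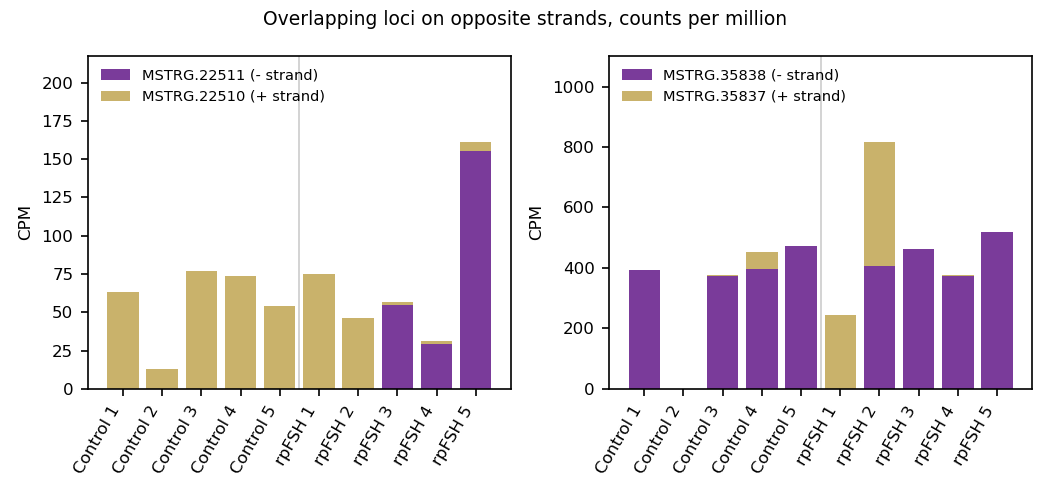
Stacked CPM in each pig of a minus-strand locus (purple) and the plus-strand locus that covers it (tan), for MSTRG.22511 with MSTRG.22510 and MSTRG.35838 with MSTRG.35837. In the first pair rpFSH 3 to 5 have nearly all counts on the minus strand and the other 7 pigs on the plus strand. In the second pair Control 2 has counts on neither.

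A gene on the lists of ovarian cell types, hormones and signalling that were used for naming was the nearest protein-coding locus of 7 of the loci, and 0 of the 7 were called (edgeR limits). Described are the 6 that lay nearest to their gene; the other was MSTRG.17087, farther from INHBA. The lists leave out other genes with called neighbours, such as BMPER, HSD17B12 and FGF5. MSTRG.1464 (chr1:120709680-120727446, plus strand) lay 12802 bases downstream of CYP19A1, the aromatase gene of granulosa cells, on the same strand, and overlapped another locus on that strand. It measured 21.2, 1.84, 27.3, 17.4 and 9.29 CPM in Control 1 to 5 and 6.02, 55.3, 4.41, 4.31 and 10.6 CPM in rpFSH 1 to 5. rpFSH 2 was the highest pig and Control 2 the lowest, and the log2 fold change was 0.14 ± 0.85 with an edgeR P of 0.875. The summed FPKM of 7 granulosa genes, CYP19A1 among them, was 130 in rpFSH 2 and 8.14, the lowest, in Control 2, but highest in Control 4 at 173.

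Of the other 5, MSTRG.17090 lay upstream of GLI3 and INHBA, the gene of an activin subunit. MSTRG.17874 lay upstream of WT1, a transcription factor gene of the gonad, and MSTRG.9134 within RefSeq CCDC39, a gene of motile cilia. MSTRG.31529 was 22387 bases from NR2F2, within the RefSeq protein-coding gene LOC102160410. MSTRG.3889 was 137939 bases from PTPRC, within the RefSeq protein-coding gene LOC110255652. The log2 fold changes of these 5 were between -0.28 and 0.24. MSTRG.17874 was found in every pig, between 32 and 90.4 CPM, and MSTRG.31529 was at 0.522 CPM at most, with 0 counts in Control 5. Over the 10 pigs, the CPM of a locus and of its nearest protein-coding locus had a median Spearman rho of 0.38 for 238 pairs at 10 to 50 kb, 0.34 for 142 pairs at 50 to 200 kb and 0.37 for 85 pairs farther apart. For 574 near stranded loci it was 0.43. These correlations are descriptions, since all pairs share the same 10 libraries, their depth and their cell content. Of the 800 loci, 102 also overlapped a RefSeq protein-coding gene with the name of their nearest protein-coding locus. Some pairs can therefore be parts of the same gene.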

How the data were processed

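Ovaries of 10 gilts were sequenced as paired-end libraries. Per the labels, poly(A) RNA was selected, whereas the methods state rRNA removal. The methods also describe a second cDNA strand made with dUTP, a step of strand-specific libraries. Neither source states whether counting used strand. The extraction text of the labels also mentions adipose tissue, whereas the tissue field and the methods give ovary. Per the submitters' processing notes, HISAT2 2.0, StringTie 1.3.0 and Bowtie 0.12.2 were used with the build Sscrofa11.1. The methods state read trimming with Cutadapt and a merge of the assembled transcripts of all libraries, with FPKM per transcript length and library size. The authors deposited, for every assembled locus and pig, an FPKM value and a whole-number count. How the deposited count was made is not given in the sources used here, and the lowest FPKM listed for a count of 0 was 0.0001. Libraries held 64873797 to 75114003 counts.

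Loci were classified from type, strand and coordinates, and set against the RefSeq gene table of the same build. Counts of all 35720 loci with a mean count of at least 10 were tested with edgeR 4.0.16 (quasi-likelihood, TMM, group only, R 4.3.3). A locus was called by the study's limits (unadjusted P below 0.05, log2 fold change above 1 or below -1), with Benjamini-Hochberg adjustment over all loci. A log2 fold change is rpFSH over control, with its standard error. For limma the fold change was taken from the mean FPKM of each group, without a standard error, and only the P from the fit. Single values per pig were compared by exact permutation (Python 3.11.15, numpy 2.4.6, pandas 2.3.3, scipy 1.17.1), and figures were drawn with matplotlib 3.10.9. Alternatives were DESeq2 1.42.0, limma 3.58.1 on log2(FPKM + 1) where the mean FPKM reached 0.1, other scalings and filters, a replicate block, each pig left out, and other distances. On simulated data of this comparison (35553 loci tested, 197 of them changed by 2 on the log2 scale), edgeR called 99% of the changed loci, 4.73% of the unchanged loci had an unadjusted P below 0.05, and 5.97% of its adjusted calls were unchanged loci. For DESeq2 the last share was 20.9%. The simulation gave every locus the same dispersion and set no pig apart, unlike the real loci. These shares therefore do not carry over to the real data.

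Named were the 5 loci with the highest mean FPKM (mean count of at least 100), the 5 with the highest mean count, the 8 called with the smallest P in each direction, those the study names, the nearest loci of listed ovarian genes, the 2 with the largest share of counts in 1 pig, the loci at the distance limit, and the 3 runs with most calls. The loci and gene lists were chosen with earlier results of these data known. The microRNA hosts other than MSTRG.12665 and MSTRG.36002, the X interval, the Y loci, the regions, the partner loci, MSTRG.698, MSTRG.36363 and MSTRG.36364 were chosen after their values were seen. Pigs are separate animals, so P values measure the spread between animals.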

Additional observations from a re-analysis of the deposited data

Results flagged for a closer look

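In 21 of 86 groups of 5 pigs examined, over the named loci and the class values, 1 pig lay apart from the other 4 by Dixon's test at the 95% level. Chance flags about 1 in 20 groups, but this number is no test, since MSTRG.25302 and MSTRG.32961 were chosen for counts in 1 pig and the Y loci after their values were seen. In rpFSH 1, the 36 loci on Y summed to 956 CPM (125 to 246 in the other rpFSH pigs), MSTRG.29967 reached 916 CPM (31.3 to 58.9), MSTRG.23824 reached 219 CPM (0.601 to 14.5), and MSTRG.12665 reached 38.2 CPM (4.12 to 12.5). MSTRG.35838 was at 0.0 CPM in rpFSH 1 (374 to 519 in the others) and at 0.0 CPM in Control 2 (374 to 472).

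In rpFSH 5, MSTRG.2744 had 59.1 CPM, MSTRG.2745 had 22.5 CPM, MSTRG.2747 had 13 CPM and MSTRG.22509 had 118 CPM. In Control 5, MSTRG.33191 had 134 CPM, MSTRG.33203 had 41.5 CPM, MSTRG.33193 had 15.3 CPM and MSTRG.16880 had 1.18 CPM (0.164 to 0.309 in the other control pigs). In rpFSH 2, MSTRG.9134 had 115 CPM and MSTRG.1464 had 55.3 CPM (4.31 to 10.6 in the others). In rpFSH 3, MSTRG.6112 had 0.0462 CPM, which is 3 counts, with 0 in the other rpFSH pigs. MSTRG.25302 had 14.5 CPM in rpFSH 4 and, among controls, 0.0614 CPM in Control 3 with 0 in the rest. MSTRG.32961 had 15.9 CPM in Control 4, and MSTRG.2747 had 0.685 CPM in Control 1.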

How the results depend on the processing

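Of the count of 62 called loci (32 higher, 30 lower), limma called 26, with 12 higher and 14 lower and 22 of them among the 62, and DESeq2 had 12 with an adjusted p below 0.05 where edgeR had none. More than 50 kb from coding loci 36 of 419 were called (8.59%, against 3.51% of all loci), 19 higher and 17 lower. Without Control 2 and Control 5 together, 19 were called lower. With 1 pig left out at a time, between 52 and 90 were called, between 25 and 50 higher and between 22 and 40 lower, and the 50 came without rpFSH 2. This was 6.72% to 11.6% of those tested, against 2.92% to 4.05% of all loci in the same fits. Alternatives chosen after seeing the data gave 33 of 334 outside RefSeq genes (9.88%, against 3.51% of all loci), 19 higher and 14 lower. With 1 locus counted per region they gave 36 (19 higher, 17 lower), a count not given here for all loci. With opposite-strand partner counts added they gave 60 of 792 (7.58%, against 3.49% of all loci). The replicate numbers did not pair the pigs: same-numbered deviations correlated between -0.214 and 0.0176, and 0 of 5 pigs correlated best with their own number. The fit with the replicate number as a block called 40 (5.16%, against 2.1% of all loci), of which 17 were lower.

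The group difference in the share of counts was 0.00359 percentage points and turned to -0.153 without Control 2 and Control 5 (exact permutation p = 0.0714), where the other 3 control pigs lay above all rpFSH pigs, ranging from -0.0797 to 0.0608 with 1 pig left out. The difference in median log10 FPKM was 0.00321 and turned to -0.0332 without both pigs, ranging from -0.0208 to 0.0171 with 1 pig left out. The cause of these shifts was not tested. Overlapping loci, an unknown strand setting in counting and 5 pigs per group limit what single loci can show.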
